A study of Drosophila melanogaster with 6 samples.

Results

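The genes described here make purines or turn them into uric acid. They were a list of 10 genes chosen by name: *Prat*, *Prat2*, *ade2*, *ade3*, *ade5*, *AdSL*, *AdSS*, *ras*, *ry* and *Uro*. The choice was made with earlier results of these data known. A gene was found through the symbol, or an older symbol of the same gene number, that the array annotation gives to a probe set, and 9 of the 10 had 1 named probe set each, out of 11982 genes measured. *Uro*, the urate oxidase gene known from the Malpighian tubule, had no named probe set in the annotation used here and was not analysed. Current names are Pfas for *ade2*, Gart for *ade3*, Paics for *ade5*, Adsl for *AdSL* and Adss for *AdSS*.

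Fat bodies were dissected from *delg* mutant larvae (delg613/Df(3R)ro80b) and from control larvae (+/Df(3R)ro80b), with 3 biological samples of 60 fat bodies each per genotype, and RNA of each went onto its own Affymetrix *Drosophila* array. The labels give an age of 6 days to every sample, and their protocol text speaks of mutant larvae for the control samples too. Delg is an ETS transcription factor, the fly homologue of mammalian NRF-2 alpha, and delg613 is a stop codon allele. The deletion Df(3R)ro80b was present in 1 copy in both genotypes, so that every other gene it removes was left in 1 copy in both. The mutant lacked delg function in the whole animal and not in the fat body alone. The study describes the larvae used for the arrays as late and wandering. In its other experiments, larvae of these genotypes were the same stage at different ages, and how closely the array samples were matched in stage was not tested.

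Cells build purines on a ribose phosphate in a chain of steps that ends in IMP, from which AMP is made on one branch and GMP on the other. Purines that are not reused are broken down to xanthine and then to uric acid, the main nitrogen waste of insects. In *Drosophila* several steps share 1 protein. *Prat* and *Prat2* encode the amidophosphoribosyltransferase of the committed step, *ade3* a protein with 3 enzyme activities, *ade2* the FGAM synthase between them, and *ade5* the carboxylase and synthase that follow. *AdSL*, adenylosuccinate lyase, acts before IMP and again in the AMP branch, *AdSS* encodes the adenylosuccinate synthetase of the AMP branch, and *ras* the IMP dehydrogenase of the GMP branch. *ry* encodes xanthine dehydrogenase, which makes uric acid.

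The deposited values were linear MAS5 signals, an estimate of transcript abundance for each probe set, scaled by the authors to the same trimmed mean on every array. Fold changes are given as log2 ratios of mutant to control signal, with the standard error (SE) from limma. The probe set of *delg* itself (Ets97D) was lower in each mutant sample than in each control sample, at 71.7, 87.1 and 91.9 against 135, 122 and 213, without passing limma's test (adjusted p = 0.267). A stop codon need not remove the transcript, and the labels cannot be checked from this signal. The sum of the 6 salivary glue genes was 281 in control replicate 2 and 196915 to 314596 in the other 5 samples. Control replicate 2 therefore stood apart. The sum of 4 midgut markers was 20284 in mutant replicate 1 and 16.5 to 1003 in the others. Of 5 fat body markers measured, none passed the test (1 was lower at an unadjusted p under 0.05), and their sum was 196446 to 230920 in the mutant and 185731 to 271925 in the control. Within this sum, control replicate 2 departed in Fbp1, at 1103, where control replicates 1 and 3 had 65884 and 57207 and the mutant samples 40320 to 47427. In Apoltp it had 20299, above the 5723 and 9873 of control replicates 1 and 3 and the 4750 to 5297 of the mutant.

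Most of these genes had higher signals in the *delg* mutant fat body. Of the 9 genes, 3 rose at an adjusted p under 0.05 from limma, *ade3*, *AdSL* and *ras* (background: 4.45% of all genes rose), and none fell (3.75% of all genes fell, and none of the 9 was lower at an unadjusted p under 0.05 or by the methods' t-test). The median log2 fold change was 1.20, compared with -0.09 over all genes, and 8 of the 9 lay above 0. In 7 of the 9 each mutant sample was above each control sample, which held for 14.5% of all genes. By mean signal all 9 lay at percentile 61.1 or above, so the shares over all genes include many dimmer genes. The list was also chosen with earlier results of these data known, so these contrasts describe it and do not test it. Between single arrays the median log2 difference over the 9 genes ran from 0.41 to 0.83 against control replicate 1, from 1.39 to 1.75 against control replicate 2 and from 1.30 to 1.67 against control replicate 3. Without control replicate 2, 3 genes rose (5.96% of all genes) and the median was 0.95. The count was 1 without mutant replicate 3 (1.49% of all genes) or without control replicate 3 (2.17%), and 5 without control replicate 1 (4.64%). It was 0 by limma without a trend in the variance, where 0.885% of all genes rose. These are signals of whole tissue samples, in which more cells of a type and more RNA per cell cannot be told apart.

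**Figure D1:**
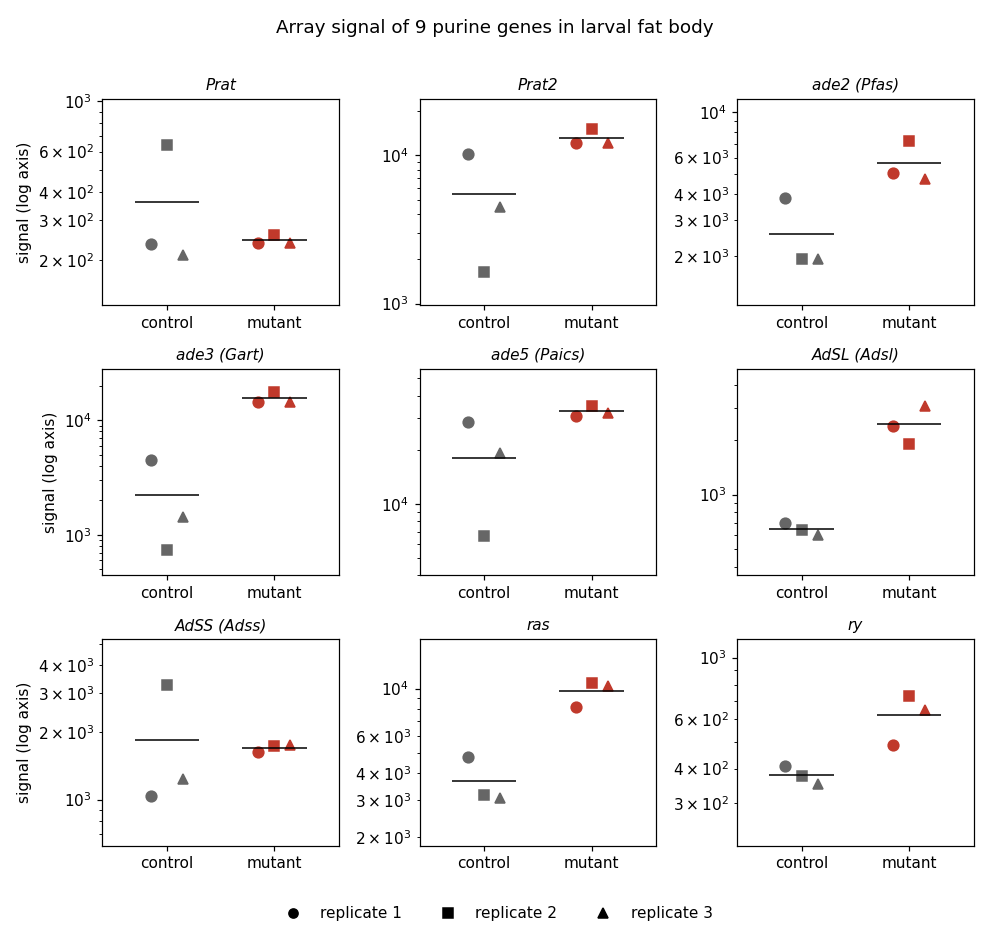
Signal of each of the 9 measured genes (log axis, arbitrary MAS5 units) in the 3 control samples (grey) and the 3 mutant samples (red), with the symbol giving the replicate number and the bar the arithmetic mean. In 7 panels all mutant points lie above all control points, while for Prat and AdSS control replicate 2 is above every mutant sample.

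The committed step has a pair of genes, and neither passed the test. *Prat2* (probe set 1624586) had signals of 12101, 15005 and 12171 in mutant replicates 1, 2 and 3 and of 10241, 1624 and 4464 in control replicates 1, 2 and 3. All mutant samples were above all controls, but the highest control lay close below, with the lowest mutant signal at 1.18 times the highest control signal. With a log2 ratio of 1.63 (SE 0.56, 95% confidence interval 0.35 to 2.92) the gene did not pass the test (adjusted p = 0.145). Without control replicate 1 it was 2.27 (adjusted p = 0.0196), and without control replicate 2 it was 0.95 (adjusted p = 0.123).

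*Prat* (probe set 1627868) had signals of 240, 258 and 238 in the mutant and of 236, 640 and 212 in the control. The mutant samples lay within the range of the controls, and 1 control, replicate 2, was far above all others. Its log2 ratio was -0.37 (SE 0.42, 95% confidence interval -1.33 to 0.59, adjusted p = 0.718), and 0.13 without control replicate 2. The log2 ratio of *Prat2* exceeded that of *Prat* by 2.00, and an exact permutation test of this difference over samples gave p = 0.1 (two-sided), the smallest it can give with 3 samples against 3. Without control replicate 2 the difference was 0.81.

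*ade3* showed the largest change of the 9 genes. Its probe set (probe set 1637037) had signals of 14522, 17476 and 14535 in the mutant and of 4509, 740 and 1445 in the control. Every mutant sample was at least 3.22 times as high as the highest control, and the controls themselves spread over 6.10-fold. This gave a log2 ratio of 3.19 (SE 0.55, adjusted p = 0.0133), a fold of 9.15 (95% confidence interval 3.80 to 22.0), and among all genes it ranked 123 from the top. It held without control replicate 2 (log2 ratio 2.60, adjusted p = 0.00697), but leaving out control replicate 3 or any mutant sample took the adjusted p to as much as 0.0664. *ade3* makes a long and a short transcript in *Drosophila*, and which of them this probe set reads was not analysed here.

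*ade2* (probe set 1629194), for the FGAM synthase, had signals of 5073, 7227 and 4742 in the mutant and of 3808, 1937 and 1928 in the control. The groups did not overlap. At a log2 ratio of 1.20 (SE 0.30, adjusted p = 0.0550) the gene lay just outside the threshold. It passed after each array was centred on its median (1.35, adjusted p = 0.0424), after quantile normalization (adjusted p = 0.0466) and without control replicate 1 (1.53, adjusted p = 0.0118). It did not pass without control replicate 2 (1.04, adjusted p = 0.0790), with any of the other samples left out (adjusted p up to 0.188), with the replicate number as a block (0.105) or by limma without trend (0.219).

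*ade5* (probe set 1640599), which follows *ade3* in the chain, had signals of 30997, 35205 and 32097 in the mutant and of 28394, 6662 and 19192 in the control. The groups did not overlap, with the lowest mutant signal at 1.09 times that of control replicate 1. The difference, a log2 ratio of 1.09 (SE 0.47), did not pass (adjusted p = 0.254). Without control replicate 2 it was 0.49 (adjusted p = 0.214).

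*AdSL* gave the call that depended least on single samples. Its probe set (probe set 1635099) had signals of 2377, 1904 and 3067 in the mutant and of 697, 638 and 597 in the control. The controls lay within 1.17-fold of each other, control replicate 2 included, and every mutant sample was at least 2.73 times as high as the highest control. The log2 ratio was 1.90 (SE 0.22, adjusted p = 0.00219), a fold of 3.74 (95% confidence interval 2.65 to 5.28). The call held with each sample left out in turn (adjusted p up to 0.0188), and was lost by limma without a trend in the variance (0.0542), as were those of *ade3* (0.09998) and *ras* (0.104).

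*ras* (probe set 1627916), for IMP dehydrogenase of the GMP branch, had signals of 8197, 10647 and 10291 in the mutant and of 4787, 3175 and 3045 in the control. Each mutant sample was at least 1.71 times as high as the highest control. This was a log2 ratio of 1.43 (SE 0.23, adjusted p = 0.00945), a fold of 2.69 (95% confidence interval 1.87 to 3.86), and 1.34 without control replicate 2 (adjusted p = 0.00860). Leaving out mutant replicate 3 (adjusted p = 0.0639) or control replicate 3 (0.0553) ended the call.

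*AdSS* (probe set 1640454), for the AMP branch, had signals of 1628, 1730 and 1756 in the mutant and of 1036, 3267 and 1236 in the control. The mutant samples lay above control replicates 1 and 3 and below control replicate 2. Its log2 ratio was 0.08 (SE 0.39, 95% confidence interval -0.82 to 0.98, adjusted p = 0.947), and 0.59 without control replicate 2 (adjusted p = 0.0572). It turned to -0.24 without control replicate 1 and to -0.11 without control replicate 3.

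*ry*, for xanthine dehydrogenase, was the only gene of uric acid formation measured. Its probe set (probe set 1638882) had signals of 485, 727 and 651 in the mutant and of 408, 378 and 353 in the control. The groups did not overlap, and the controls lay within 1.16-fold of each other. In log2 terms the ratio was 0.69 (SE 0.23, 95% confidence interval 0.16 to 1.22) and did not pass the test (adjusted p = 0.133). It was 0.69 without control replicate 2 too (adjusted p = 0.124).

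**Figure D2:**
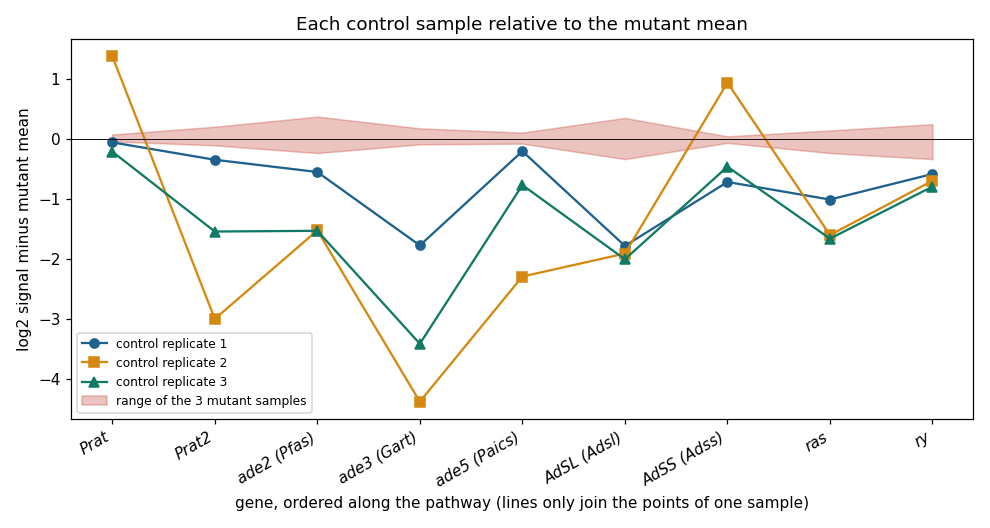
Log2 signal of each control sample minus the mean of the mutant samples, for the 9 genes in the order of the pathway, with the shaded band showing the range of the 3 mutant samples. Control replicate 2 falls furthest below the mutants for Prat2, ade3 and ade5 and lies above them for Prat and AdSS, while the 3 controls lie close together for AdSL and ry.

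The controls were mostly more spread than the mutant samples, in these genes as over all genes. The highest mutant signal was 1.08 to 1.61 times the lowest in all 9 genes, with a median of 1.24, and in the controls this range was 1.16 to 6.31 with a median of 3.02. The control range was the wider one in 7 of the 9 genes, compared with 70.9% of the 4667 genes at least as bright as the dimmest of the 9. Over those 4667 genes the median range was 1.28 in the mutant and 1.57 in the controls. Against the mean of the other controls, control replicate 2 was at least 2-fold lower in *Prat2*, *ade3* and *ade5*, as in 20.4% of all genes, and at least 2-fold higher in *Prat* and *AdSS*, as in 15.8% of all genes. In *AdSL* and *ry* control replicate 2 was at 0.99 times the mean of the other controls. In *Prat2*, *ade3* and *ade5* control replicate 1 was the control closest to the mutants and control replicate 2 the furthest, by 6.31-fold, 6.10-fold and 4.26-fold between these controls.

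**Figure D3:**
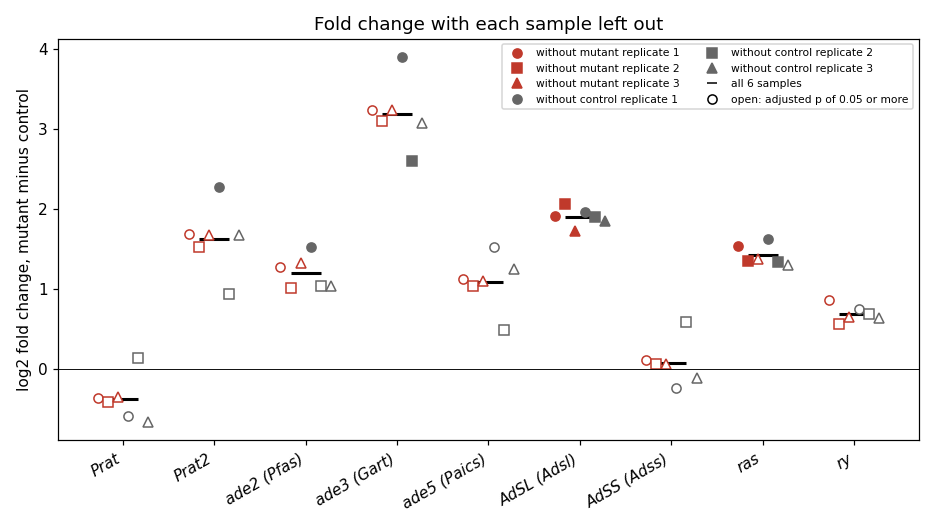
Log2 fold change (mutant minus control) of each gene with all 6 samples (bar) and with each sample left out in turn (symbols, filled where the adjusted p was under 0.05). AdSL keeps filled symbols throughout, from 1.73 to 2.07, while Prat and AdSS cross 0.

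Other purine genes were read from lists of pathway genes. PRPP synthetase (Prps), which makes the ribose phosphate that purine synthesis starts from, had signals of 13896, 15174 and 22932 in the mutant and of 12217, 5557 and 9578 in the control. The groups did not overlap, and the log2 ratio of 0.96 (SE 0.33) did not pass the test (adjusted p = 0.137). Without control replicate 2 it was 0.64 (adjusted p = 0.162). The GMP synthetase gene *bur*, which acts directly after *ras*, had signals of 1539, 1619 and 1803 in the mutant and of 2822, 2129 and 2584 in the control. Here every mutant sample was below every control, which held for 15.6% of all genes, with a log2 fold change of -0.60 (SE 0.18, adjusted p = 0.104). It passed without control replicate 2 (-0.71, adjusted p = 0.0240). The probe sets for CG11089, whose older name is atic, also name a second gene, so that this step before IMP was not analysed.

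The ring of the purine takes carbon from formyl groups carried by folate. Of 3 genes of their supply 2 rose. Nmdmc, which makes formyl folate in mitochondria, had a log2 ratio of 2.21 (SE 0.23, adjusted p = 0.00141). Shmt, serine hydroxymethyltransferase, rose by 1.05 (SE 0.22, adjusted p = 0.0261), and its call was lost without any sample but control replicate 2. The folate enzyme gene *pug* had signals of 11422, 19476 and 12814 in the mutant and of 18003, 13825 and 16865 in the control, with overlapping groups (-0.19, adjusted p = 0.768).

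**Figure D4:**
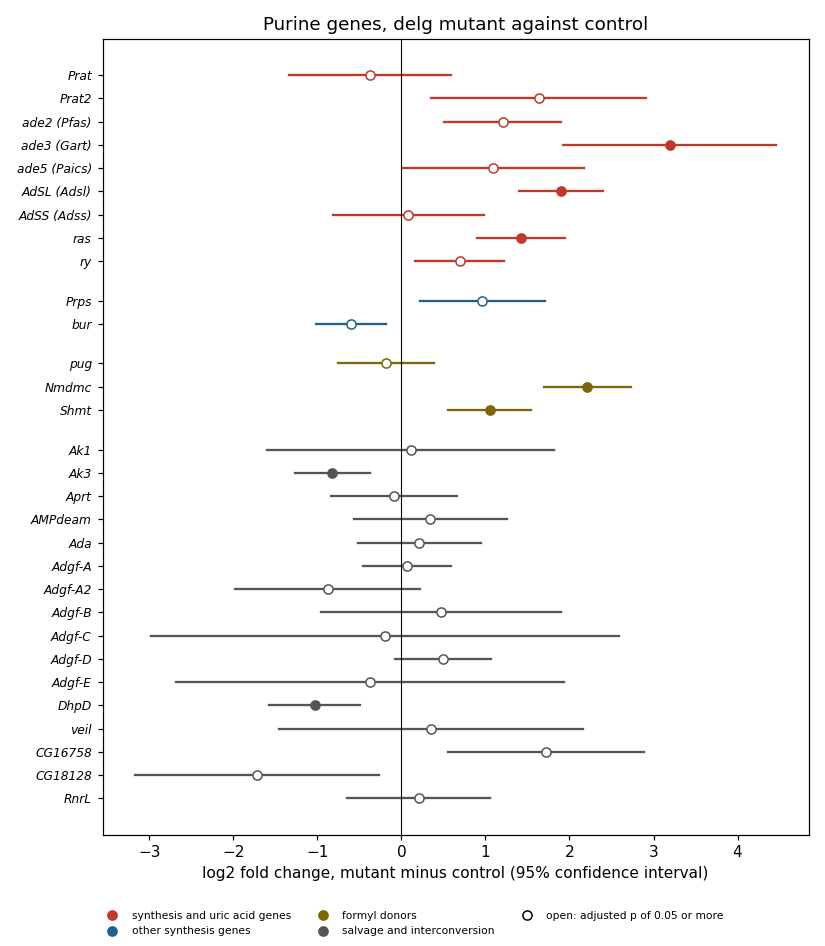
Log2 fold change (mutant minus control) with its 95% confidence interval for the 9 genes and for the other purine and formyl genes measured, with filled points at an adjusted p under 0.05. The filled points above 0 are ade3, AdSL, ras, Nmdmc and Shmt, and those below 0 are Ak3 and DhpD.

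Of 16 genes measured for the salvage and interconversion of purines, 2 fell and none rose (1 was higher at an unadjusted p under 0.05), with a median log2 fold change of 0.08. DhpD, a deaminase of pterins and of guanine, had signals of 2179, 2240 and 2178 in the mutant and of 3426, 6336 and 4190 in the control (log2 ratio -1.03 with SE 0.24, adjusted p = 0.0400). Ak3, a mitochondrial adenylate kinase, had a log2 ratio of -0.83 (SE 0.19, adjusted p = 0.0436). Both calls were lost after each array was centred on its median (adjusted p = 0.105 and 0.158) and without any one mutant sample or control replicate 3.

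Xanthine dehydrogenase needs a molybdenum cofactor, and aldehyde oxidases use the same cofactor. Of 7 genes measured in this group 1 rose and 1 fell. *mal*, the sulfurase that activates the cofactor, had signals of 1075, 998 and 1003 in the mutant and of 633, 485 and 607 in the control, with no overlap of the groups (log2 ratio 0.84 with SE 0.19, adjusted p = 0.0401). That call was lost with quantile normalization (0.0520) and with any sample other than control replicate 2 left out (adjusted p up to 0.158). Mocs1, of the first step of cofactor synthesis, had a log2 ratio of 0.79 (adjusted p = 0.0898). The aldehyde oxidase gene AOX3 had signals of 169, 82.7 and 126 in the mutant and of 1114, 483 and 829 in the control (log2 ratio -2.66 with SE 0.39, adjusted p = 0.00657), and its call held with each sample left out in turn (up to 0.0427). It was lost by limma without trend (0.0647) and by the methods' t-test with Benjamini-Hochberg adjustment (0.0914).

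Some markers of other cells differed between the genotypes. All 4 hemocyte markers were higher in the mutant and 2 passed the test, with a sum of 1280 to 2820 in the mutant and of 365 to 926 in the control. Of 11 Malpighian tubule markers measured, 3 fell and 1 rose, with a sum of 3101 to 3881 in the mutant and of 6223 to 9326 in the control. Their median log2 ratio was -0.16, with 6 below 0 and 5 above. The genes that fell were *salt* (-4.40), Irk3 (-2.22) and ZnT35C (-1.59), and the one that rose was Drip (2.01). Most of the control sum came from Irk3 and *salt*. Irk3 had 2298 to 5072 in the control and 597 to 847 in the mutant. For *salt* the signals were 1571 to 2001 in the control and 44.5 to 121 in the mutant. The sum therefore does not stand for the 11 tubule markers as a set. The 3 muscle markers summed to 81.1 to 175 in the mutant and 151 to 331 in the control, and none passed the test (none had an unadjusted p under 0.05). The part of these cells in the purine results was not tested.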

How the data were processed

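Larval fat body of 3 *delg* mutant and 3 control samples was measured on 1 Affymetrix array each. The authors isolated RNA after Qiazol and chloroform extraction, and the deposited intensities are MAS5 signals made with GCOS 1.4 per the labels. The authors' further evaluation was made in GeneSpring GX, with settings not given in the sources used here. The table holds no detection calls.

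Of 18952 probe sets, 183 control probe sets were left out. The log2 signals of the other 18769 went into a linear model in limma 3.58.1 (R 4.3.3), moderated with trend, with no added constant, filter or further normalization, and with Benjamini-Hochberg adjustment over all of them at a threshold of 0.05. Probe sets took the gene symbols of the array annotation, brought up to date with a RefSeq table (Release 6 plus ISO1 MT) by Entrez number, which matched 13544 of 13647 probe sets with 1 symbol. Where a gene had several probe sets, the brightest on average stood for it. The code was tested on simulated data.

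The genes and lists were chosen with earlier results of these data known. All 10 genes of the list are named, and of other lists those past the threshold, up to 3 per direction, or the one with the smallest p. Mocs1, *pug*, Prps, *su(r)* and *r* were named after their values were seen. So were the single cell markers Fbp1, Apoltp, *salt*, Irk3, ZnT35C and Drip. Cell markers are given mainly as sums of signals. Alternatives were centring, quantile normalization, adding 100 before the log, the brighter probe sets, a replicate block, limma without trend, array weights, the methods' t-test, averaging the probe sets of a gene and leaving out each array. Precision is limited by how few arrays there are. The p-values of limma set the difference between the groups against the spread of samples within them, moderated over all probe sets.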

Additional observations from a re-analysis of the deposited data

How the results depend on the processing

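The count of 3 purine genes that rose was 4 after centring each array (5.73% of all genes rose) and after quantile normalization (4.48%). It was also 4 with the brighter probe sets alone (8.16% of the 7804 genes left). With 100 added it was 3 (4.47% of all genes), as with probe sets averaged per gene (4.09%). Averaging could not change the signals of the 9 genes, which had 1 named probe set each. The count was 0 by limma without trend (0.885% of all genes rose) and 5 with array weights (7.11%). By the methods' t-test it was 5 before (10.2%) and 1 after Benjamini-Hochberg adjustment (1.14%). Without trend and by that adjusted test the calls of Shmt, Ak3, DhpD and *mal* were lost too. With each sample left out it ran from 1 (without mutant replicate 3 or control replicate 3) to 5 (without control replicate 1). None of the 9 fell under any of these alternatives, and their median stayed between 0.95 and 1.53. With 1 sample left out, the log2 ratio of *Prat* ran from -0.66 to 0.13 and that of *AdSS* from -0.24 to 0.59. With each sample left out, 1 to 2 of the formyl genes rose, 0 to 2 salvage genes fell, 0 to 1 of the cofactor genes rose, and 0 to 1 of the other synthesis genes and 0 to 1 of the pyrimidine genes fell. Centring left 0 salvage genes that fell. Quantile normalization left 0 cofactor genes that rose and gave 1 pyrimidine gene that fell.

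Between same-numbered mutant and control samples the correlation of their deviations was over 0.1 in 0 of 3 pairs. It was taken over all 18769 probe sets, dim ones included, so it cannot show whether such samples shared a batch. With the replicate block 3 purine genes rose, as without it, and the calls of Shmt (0.0510), DhpD (0.0760), Ak3 (0.0947) and *mal* (0.103) were lost. The number of all genes that rose went from 533 to 338. All arrays carry signals without detection calls, so that no limit of detection was set.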

Other observations

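Pyrimidine genes were measured beside the purine genes. Of 7 genes 1 rose and none fell by limma after adjustment (1 was lower at an unadjusted p under 0.05), with a median log2 ratio of -0.25. CRMP, whose locus encodes the dihydropyrimidinase of pyrimidine breakdown, had signals of 1463, 1933 and 1768 in the mutant and of 224, 73.4 and 120 in the control. The groups lay far apart (log2 ratio 3.77 with SE 0.39, adjusted p = 0.00141), and the call held with each sample left out in turn, but not by the methods' t-test with Benjamini-Hochberg adjustment (0.0600). Of 4 other CRMP probe sets, all dimmer, 2 passed in the same direction (adjusted p = 0.0355 and 0.0151), 1 was higher without passing (2.03, adjusted p = 0.0874) and the dimmest was lower (-1.68, adjusted p = 0.186). The dihydropyrimidine dehydrogenase gene *su(r)*, which acts directly before it, had signals of 660, 762 and 685 in the mutant and of 1523, 4991 and 1597 in the control, with no overlap of the groups (-1.71, SE 0.42, adjusted p = 0.0508), and it was named after its values were seen. It passed without control replicate 2 (-1.15, adjusted p = 0.00405), without control replicate 1 (0.0410), with quantile normalization (0.0363), with the brighter probe sets alone (0.0484) and with array weights (0.0163), and its adjusted p was up to 0.176 with another sample left out. The synthesis gene *r* (rudimentary), for the protein of the opening steps, had a log2 ratio of -0.39 (adjusted p = 0.612), and its signal in control replicate 2, 675, was above those of the other 5 samples, 281 to 378. Without control replicate 2 its log2 ratio was -0.04 (adjusted p = 0.948).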
